A study of Schizosaccharomyces pombe with 39 samples.

Results

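The transcripts described here are 172 non-coding RNAs of Schizosaccharomyces pombe that overlap no other annotated row on either strand. They were taken from the 6711 rows of the time-course count table, of which 1486 carry SPNCRNA identifiers. Of these, 200 overlapped no other row. The rule then removed 10 named prl, SPNCRNA.366 and 17 lying within 125 kb of an end of chromosome I or II, which left 75 on chromosome I, 56 on chromosome II and 41 on chromosome III. The threshold fell between SPNCRNA.292, 114.1 kb from an end and left out, and SPNCRNA.273, 135 kb from an end and kept, with means at 48 h of 0.584 and 0.293 CPM (counts scaled to library size) and at 0 h of 0.51 and 0.537 CPM. The ends of chromosome III were not subject to it. Reads over an overlap can be counted for both genes, so these rows are the ones least exposed to a neighbour's reads within the table. Of the 172, 112 are nevertheless overlapped by a further RefSeq gene that the table does not list, 4 of them by a protein-coding gene.

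Polyadenylated RNA was sequenced in 39 libraries forming 13 groups of 3, and every strain lacked mst2, which encodes a histone acetyltransferase. The degron strain carried ade6::ade6+-adh15prom-skp1-OsTIR1-natMX6 joined to a further fusion, adh15prom-skp1-AtTIR1-2NLS, together with nmt81-epe1-3xFLAG-AID and mst2D. In it Epe1, a JmjC-domain protein that limits heterochromatin, was placed under a thiamine-repressible promoter and tagged for auxin-induced degradation. Depletion was by TN, thiamine at 15 mM with 1-napthaleneacetic acid at 500 mM as labelled, in log-phase cultures in EMMC medium at 32 C. The groups were the deletion strain mst2Depe1D as biological replicates 1 and 2, the degron strain at 24, 48, 72, 96 and 120 h of TN with its 0 h samples, and in a separate memory experiment the degron strain after 120 h of TN, after 24 h and 48 h of recovery without TN, and after a second TN treatment of 24 h that followed 24 h of recovery, with untreated samples. TN was given to no strain without the degron, so treatment and Epe1 loss cannot be told apart. The time course has untreated samples at 0 h only, so time in culture and time in TN cannot be told apart either. The deletion libraries differ from the 0 h libraries in strain and in table at once.

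Non-coding RNAs of fission yeast are kept low by several routes. Transcripts of the centromeric repeats feed RNA interference, which directs heterochromatin back to those repeats, while Mmi1 binds RNAs carrying copies of the hexamer UNAAAC and delivers meiotic and non-coding transcripts to the nuclear exosome and to heterochromatin factors. Epe1 acts where heterochromatin forms and opposes it.

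Some of the sequences show why particular counts need care. On each chromosome 1 stretch of over 25 kb holds no row other than SPNCRNA ones, and these stretches, called gene-free here, hold 11 of the 172 RNAs. Of these 11, 4 are on chromosome I between 3751730 and 3790911, 6 on chromosome II between 1598156 and 1648152, and SPNCRNA.480 on chromosome III between 1064444 and 1142615. Each of the 10 on chromosomes I and II has between 83.6% and 100% of its sequence in another copy in the genome at 95% identity or more. RefSeq sequences (ASM294v3) of SPNCRNA.231 (chrI:3761155-3761234, plus strand) and SPNCRNA.373 (chrII:1640724-1640803, plus strand) are printed over the 80 bases without a gap where they differ most, 5′ to 3′, with differing bases in capitals.
SPNCRNA.231: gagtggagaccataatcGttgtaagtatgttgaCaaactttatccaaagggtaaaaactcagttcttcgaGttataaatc
SPNCRNA.373: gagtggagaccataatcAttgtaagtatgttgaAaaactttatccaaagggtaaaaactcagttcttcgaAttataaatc
Over 952 aligned columns the pair was 96.8% identical. SPNCRNA.360 and SPNCRNA.373 were 99.9% identical over 1403 bases in opposite orientation, and SPNCRNA.230 and SPNCRNA.372 were 99.8% identical over 1020 bases in opposite orientation. A read that covers no differing base cannot be given to 1 copy by its sequence, and with strand use not stated, a transcript and a reversed copy of it cannot be separated. Values of these 10 RNAs are given per row as counted, and a difference between their rows is not read as one between loci.

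The same caution holds for meu3 and meu19, meiotically upregulated RNAs at opposite ends of chromosome III, which were 98.4% identical over 506 aligned columns. Their RefSeq sequences are given at meu19 (chrIII:2419460-2419539, plus strand) and meu3 (chrIII:42237-42316, minus strand, written as the transcript), with differing bases in capitals.
meu19: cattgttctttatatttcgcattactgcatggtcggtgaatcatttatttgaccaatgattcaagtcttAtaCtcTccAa
meu3: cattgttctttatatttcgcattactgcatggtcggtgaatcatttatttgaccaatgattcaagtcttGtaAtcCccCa
In all, 13 of the 172 had at least 50% of their sequence in another copy at 95% identity or more.

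SPNCRNA.230 (nam5 in RefSeq) is shown for its run of the Mmi1 hexamer, written TNAAAC in DNA letters, over its densest 60 bases (chrI:3753800-3753859, plus strand), beside 60 bases around the first such hexamer of omt3 (chrI:4516268-4516327, plus strand), the most abundant RNA among those that rose. Capitals mark the hexamer.
SPNCRNA.230: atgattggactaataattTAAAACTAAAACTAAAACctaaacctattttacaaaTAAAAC
omt3: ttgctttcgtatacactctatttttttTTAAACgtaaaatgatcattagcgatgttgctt
SPNCRNA.230 held 9 hexamers, 8.33 per kb of its RefSeq interval. The hexamer, searched on the transcript strand, was present in 72.1% of the 165 RNAs with a RefSeq record and 87.9% of all 6594 rows with one, at 2.22 and 1.80 per kb. In windows of 300 bases around the start, from 250 before to 50 after it, searched on both strands, ATGACGT was found in 1.82% of the 165 and 1.58% of all rows, TTCTTTGTT in 2.42% and 2.08%, and TGATAA in 23.6% and 26.6%. The hexamer was thus in a smaller share of the RNAs and denser per kb. The RNAs are also shorter and lower in GC content than all rows, as given below, and neither value was adjusted for that. Shares for the other 3 motifs lay close to those over all rows, and a match is a description, not a site.

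The 172 RNAs were short, AT-rich and weakly expressed. Their median length was 588 bases against 1678 over all rows, and their median GC content 32.2% against 36.5%. The nearest row lay a median of 139 bases away, on the same strand in 84 cases, divergent in 62 and convergent in 26. At 0 h the median RNA stood at 1.99 CPM, against 74.2 CPM for all rows, and per length at 4.11 RPKM (CPM per kb) against 38.4 RPKM. Together they made up 0.104% of the scaled counts at 0 h, and 53 of them averaged under 1 CPM. The highest per-length levels at 0 h were 294 RPKM for SPNCRNA.120, 129 RPKM for SPNCRNA.757 and 84.8 RPKM for SPNCRNA.105. At 48 h SPNCRNA.120 was slightly lower than at 0 h (log2 change -0.38 ± 0.13, adjusted p = 0.022), and SPNCRNA.105 had a log2 change of -0.14 ± 0.09 (adjusted p = 0.22). SPNCRNA.757, whose interval a RefSeq protein-coding gene overlaps, had 94.3 ± 5.07 CPM at 0 h (SD, n = 3). Counts of srp7, the RNA of the signal recognition particle, were low in this polyadenylated material, at 0.0847, 1.07 and 0.555 CPM at 0 h.

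Library totals ran from 14781022 to 27900659 counts. Memory libraries differed in how their counts followed GC content, with Spearman's rho across 6232 rows between -0.594 and 0.685, while the time-course libraries lay between -0.153 and 0.151 over 6414 rows. The 3 memory libraries above 0.5 were replicate 3 of the 48 h recovery and replicates 2 and 3 of the second depletion. Counts of epe1 outside the overlapping row prl67 lay at 30.4 to 40 CPM at 24 h, against 74.5 to 89.7 CPM at 0 h, at 12.4 to 18.8 CPM after the second depletion, against 98.4 to 110 CPM in untreated samples, and at 15.8 to 19.6 CPM in the libraries labelled as deletion. Counts of epe1 therefore remained in the strain labelled mst2Depe1D at about the level of the second depletion. The part of the gene deleted is not given in the sources used here, so these counts do not check that label. Mating-type genes were examined as markers of the M and P cell types. The summed level of the 5 of 6 listed M genes in the table was 1060 to 1216 CPM in deletion replicate 2 and 151 to 171 CPM in deletion replicate 1, and no listed gene was at 0 throughout a group. It was 509 to 645 CPM at 0 h and 648 to 824, 700 to 952, 382 to 485, 289 to 425 and 234 to 340 CPM after 24, 48, 72, 96 and 120 h of TN. In the memory experiment it was 119 to 151 CPM after 120 h, 417 to 608 and 562 to 721 CPM after 24 h and 48 h of recovery and 156 to 281 CPM after the second depletion, against 731 to 790 CPM untreated. Within the time course the range of the M genes thus reached highest at 48 h, overlapping with that at 24 h. In the memory experiment the M genes were lower in the depleted samples than in the untreated ones. The summed level of 3 of 4 listed P genes lay between 252 and 482 CPM in every group. The part of either in the results was not tested.

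The first question is at which times of TN treatment these RNAs differed from 0 h. At 24 h, 59 of the 164 tested differed from 0 h at an adjusted p under 0.05 by edgeR's quasi-likelihood test, 46 higher and 13 lower, against 37.7% of all rows called, 20.5% higher and 17.2% lower. At 48 h, 95 of 164 differed, 81 higher and 14 lower, against 48.0% of all rows. The share that was higher was 49.4% of the RNAs and 25.6% of all rows, and the share lower 8.54% and 22.4%. Of those called, 52 were at least 2-fold higher, against 8.67% of all rows, and 12 at least 2-fold lower, against 1.14%. The median log2 change at 48 h was 0.58 for the 164 and 0.00 for all rows. Part of this skew was shared by the 1286 SPNCRNA rows that overlap another row. At 24 h 27.1% of those were higher and 9.8% lower, against 28% and 7.93% of the 164. At 48 h 34.7% of the overlapping rows were higher and 13.1% lower, with a median log2 change of 0.13. Less RNA per cell and fewer cells carrying it cannot be told apart in these bulk samples.

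The response then receded. At 72 h, 35 were called (28 higher and 7 lower, all rows 15.8%, 10.2% and 5.57%), at 96 h 25 (17 and 8, all rows 12.5%, 7.56% and 4.94%) and at 120 h 36 (12 and 24, all rows 14.1%, 6.38% and 7.76%). Of the 24 lower at 120 h, 8 were in the gene-free stretches. Of the 153 outside them, 11 were higher and 16 lower at 120 h, with a median log2 change of -0.008. With GC correction these were 13 and 15, with a median of 0.03. With replicate number as a block, which paired the libraries of the 72 h comparison, 44 were called at 72 h. Leaving out 0 h replicate 1, 0 h replicate 2 or 72 h replicate 2 gave 23 at 72 h, and leaving out 0 h replicate 1 gave 20 at 120 h. The median level of the 172 was 1.99 CPM at 0 h, and after 24, 48, 72, 96 and 120 h of TN it was 2.60, 3.59, 2.81, 2.60 and 2.05 CPM. Summed, they reached 1552 to 1794 CPM at 48 h, against 1021 to 1058 CPM at 0 h, and stood at 1043 to 1071 CPM at 120 h. The summed levels did not overlap between 48 h and 0 h and did overlap between 120 h and 0 h.

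**Figure D1:**
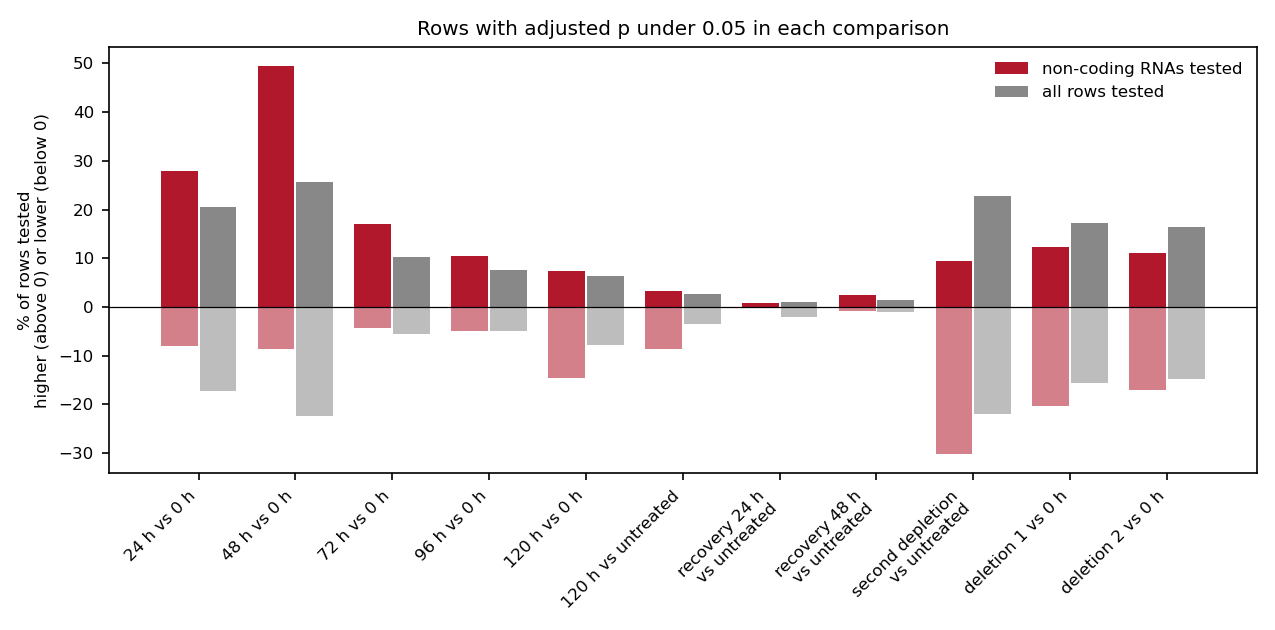
Share of the tested non-coding RNAs (red, left bar of each pair) and of all tested rows (grey, right bar) with an adjusted p under 0.05, in percent, higher above the line and lower below it, for 11 comparisons. At 48 h against 0 h, 49.4% of the RNAs were higher, against 25.6% of all rows, and after the second depletion 30.2% were lower, against 22%. With GC correction 29 of 126 were lower, against 24.2% of all rows.

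**Figure D2:**
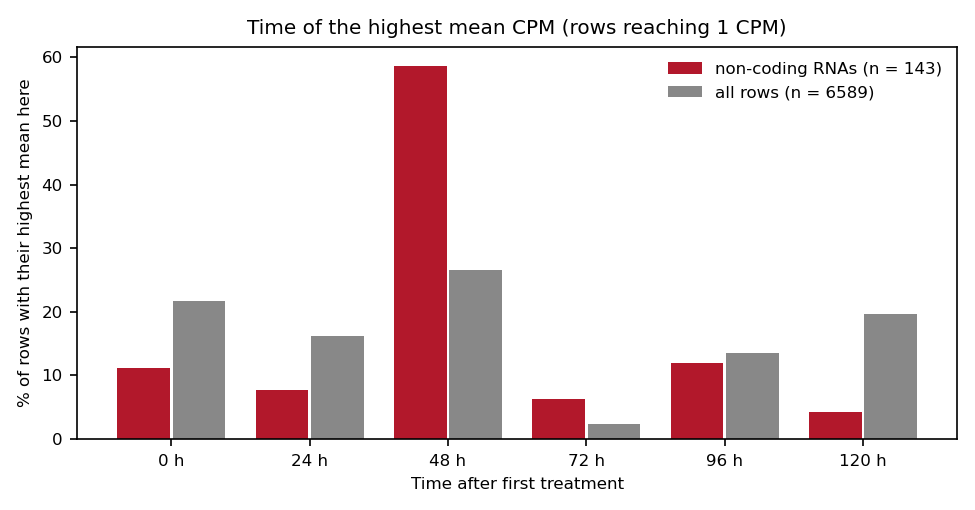
Percent of rows whose highest group mean fell at each time after the first TN treatment, for rows reaching 1 CPM in some group (143 non-coding RNAs in red, 6589 rows in all in grey). The RNAs had their highest mean at 48 h in 58.7% of cases, against 26.6% of all rows.

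Of the 143 RNAs that reached 1 CPM at some time, 84 had their highest mean at 48 h, 17 at 96 h and 16 at 0 h. The plot of peak times sets these shares beside those of all rows. The lowest mean fell at 120 h for 54 of them and at 0 h for 45.

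The RNAs of the gene-free stretches formed the falling side of the early response. At 24 h, 10 of the 11 fell and the remaining one, SPNCRNA.480, had 0.921, 0.888 and 0.642 CPM at 24 h, against 0.339, 0.398 and 0.656 CPM at 0 h (adjusted p = 0.20). Outside the stretches only 3 of 153 RNAs fell at 24 h while 46 rose. The fall was not confined to RNAs of the stretches. The genes nearest to SPNCRNA.234 and SPNCRNA.230, emc5 and per1, had log2 changes of -4.51 and -1.13 at 24 h (adjusted p = 3.6e-12 and 0.00065). The summed level of the 6 stretch RNAs on chromosome II was 0.391 ± 0.267 CPM at 24 h, against 29.8 ± 1.35 CPM at 0 h (SD, n = 3 each). That of the 4 on chromosome I was 0.189 ± 0.169 CPM at 24 h, against 12.3 ± 0.438 CPM at 0 h (SD, n = 3 each). The whole group was close to absent from the 24 h libraries.

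SPNCRNA.359 was the most abundant of them. It had 14.9, 17.7 and 16.7 CPM at 0 h, then 0.0369, 0 and 0.12 CPM at 24 h and 2.24, 3.61 and 3.13 CPM at 48 h. The 72 h libraries held 10.3, 12 and 12.2 CPM, the 96 h libraries 6.84, 8.88 and 9.11 CPM, and those of 120 h 3.14, 3.81 and 3.60 CPM. It thus vanished within a day, came back to most of its starting level by 72 h and was low again at 120 h, with no overlap between 0 h and any later time. Its 24 h libraries held 4 counts in all, a summed level 302-fold lower than at 0 h (95% interval 118 to 1110, counting error only). At 120 h it was lower than at 0 h by a log2 change of -2.22 ± 0.20 (SE, adjusted p = 1.6e-06).

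SPNCRNA.373 followed the same course with a fuller return. It had 0.0369, 0.14 and 0.0802 CPM at 24 h, against 5.12, 5.37 and 5.40 CPM at 0 h, a ratio of summed levels 64.8-fold lower (95% interval 29.5 to 178). At 72 h it had 6.003, 8.97 and 7.59 CPM (log2 change 0.51 ± 0.17 against 0 h, adjusted p = 0.051). At 120 h it had 2.37, 1.97 and 2.68 CPM, all below the 0 h libraries (log2 change -1.18 ± 0.18, adjusted p = 0.00034).

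SPNCRNA.360 did not come back to its starting level. It had no count in any 24 h library, at least 32.3-fold lower than at 0 h against a floor of 3 counts per library, where it had 4.95, 3.62 and 3.18 CPM. It stood at 0.884, 1.17 and 1.04 CPM at 72 h (log2 change -1.92 ± 0.33, adjusted p = 0.0014) and at 0.228, 0.0856 and 0.277 CPM at 120 h (log2 change -4.30 ± 0.43, adjusted p = 1.5e-05). All later libraries were below all 0 h libraries.

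SPNCRNA.230, the hexamer-rich repeat shown above, went the other way after 48 h. It also had no count at 24 h, at least 12.6-fold lower than at 0 h (1.61, 1.31 and 1.76 CPM). It then had 3.86, 5.57 and 5.03 CPM at 72 h, 6.84, 6.16 and 5.20 CPM at 96 h and 3.14, 2.70 and 2.12 CPM at 120 h, above every 0 h library at all these times. Its log2 change was 1.63 ± 0.23 at 72 h (adjusted p = 0.00029), 1.96 ± 0.23 at 96 h (adjusted p = 6.5e-05) and 0.77 ± 0.24 at 120 h (adjusted p = 0.046). It was the only RNA of the stretches called higher at 72, 96 and 120 h, while 2, 3 and 8 others were called lower.

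**Figure D3:**
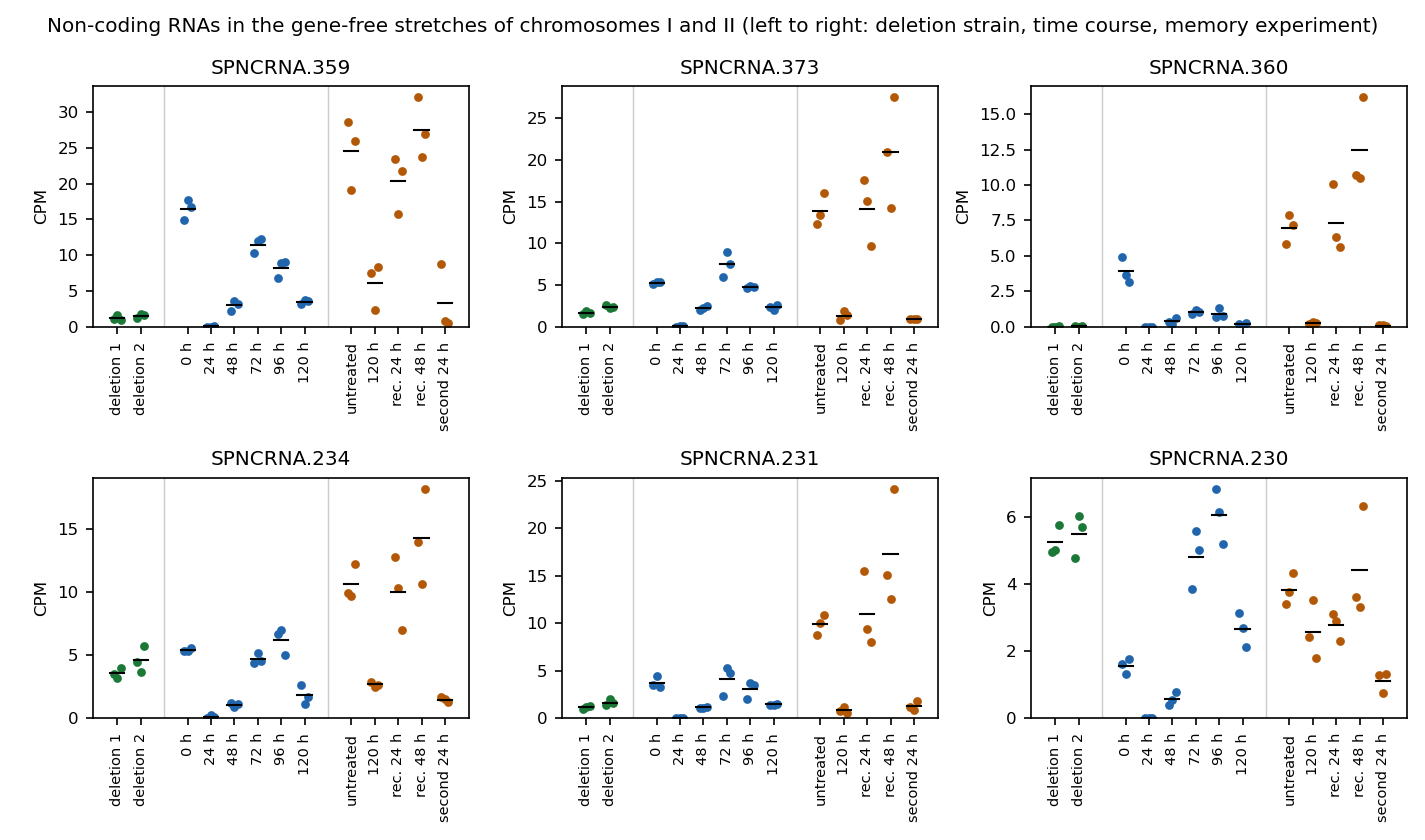
CPM of 6 RNAs of the gene-free stretches in every library (points) with the group mean (line), with the deletion libraries at the left, then the time course, then memory libraries, each panel on its own linear axis from 0. All 6 were near 0 at 24 h of the first depletion, and SPNCRNA.230 alone had all of its deletion libraries above all of its 0 h libraries.

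In the memory experiment the same group fell with depletion, returned with recovery and fell again. Its 120 h samples had 15 of 126 tested RNAs called against untreated samples, 4 higher and 11 lower, against 6.15% of all rows, 2.62% and 3.53%. The 4 were SPNCRNA.472, SPNCRNA.1466, SPNCRNA.383 and SPNCRNA.451, the last 2 named after their values were seen. Of the 11 lower, 7 were in the stretches. SPNCRNA.360 had 0.182, 0.321 and 0.292 CPM after 120 h of TN, against 5.84, 7.90 and 7.20 CPM untreated (log2 change -4.68 ± 0.34, adjusted p = 7.7e-07). Outside the stretches SPNCRNA.394, SPNCRNA.1506, SPNCRNA.397 and SPNCRNA.900 were lower, the last 3 named after their values were seen.

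After recovery hardly any RNA was called against untreated samples. SPNCRNA.1278 alone differed after 24 h (all rows 3.04%, 0.925% higher and 2.11% lower), with 18.9, 15.4 and 18.2 CPM, against 9.20, 9.14 and 7.30 CPM untreated (log2 change 1.03 ± 0.22, adjusted p = 0.022). With GC correction 3 were called, 2 higher and 1 lower. After 48 h, 4 differed (all rows 2.42%, 1.42% higher and 1.0% lower), with SPNCRNA.1278, SPNCRNA.383 and SPNCRNA.1299 higher and SPNCRNA.679 lower, and these names too, like SPNCRNA.1278, were chosen after their values were seen. With replicate number as a block, which paired this comparison, 2 were called, and without any 1 of the untreated libraries none was called at either time. SPNCRNA.360 was back at 10.1, 6.33 and 5.63 CPM after 24 h of recovery, and compared with 120 h of TN it rose by a log2 change of 4.76 ± 0.34 (adjusted p = 6.4e-07). In that comparison 13 of 126 were called, 11 higher and 2 lower (all rows 4.73%, 2.28% and 2.45%), and 7 of the 11 were in the stretches. The 2 lower were SPNCRNA.472 and SPNCRNA.650, the second named after its values were seen. With GC correction 14 were higher and 5 lower (all rows 3.32% and 4.19%). The summed level of the 6 on chromosome II was 47.2 ± 9.74 CPM after 24 h of recovery, against 51.2 ± 4.59 CPM untreated (SD, n = 3 each), and the ranges overlapped.

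The second depletion lowered all 10 stretch RNAs in the memory table. SPNCRNA.373 had 0.976, 0.968 and 0.996 CPM after it, against 12.3, 13.5 and 16.0 CPM untreated (log2 change -3.82 ± 0.35, adjusted p = 6.6e-06). SPNCRNA.359 varied between libraries, with 8.79, 0.753 and 0.554 CPM after the second depletion, against 28.6, 19.1 and 25.9 CPM untreated, and the groups did not overlap. SPNCRNA.372 had no count after the second depletion, at least 4.44-fold lower than untreated. The depth of the fall, here measured from the 24 h recovery samples, was smaller than after the first 24 h of depletion for 5 of the 10. This was by the test of the difference between the 2 effects. For SPNCRNA.231 that difference was a log2 of 4.58 ± 0.93 (adjusted p = 0.0015), from 1.23, 0.86 and 1.83 CPM after the second depletion, and 0, 0 and 0.0401 CPM at 24 h of the first. The depleted samples of the 2 experiments come from tables normalized separately. Levels of SPNCRNA.231 before any TN differed, 8.76 to 10.9 CPM untreated and 3.33 to 4.46 CPM at 0 h. The untreated samples are not the reference of that difference. The summed level of the 4 stretch RNAs on chromosome I was 25.4 ± 7.43 CPM after 24 h of recovery, against 12.3 ± 0.438 CPM at 0 h (SD).

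At 120 h the effects in the 2 experiments could be compared in the same way. Of 139 tested RNAs, 10 differed, 5 in each direction, against 3.81% of all rows, 1.93% higher and 1.88% lower. Leaving out 1 library gave 4 to 6 where it was 0 h replicate 1, untreated replicate 2, replicate 3 of 120 h in the memory experiment or any of the 120 h libraries of the time course. SPNCRNA.373 had 0.819, 1.88 and 1.38 CPM after 120 h in the memory experiment and 2.37, 1.97 and 2.68 CPM at 120 h in the time course, and its fall was deeper in the memory experiment by a log2 of -2.16 ± 0.36 (adjusted p = 0.0011). Its starting levels differed as well, as given above.

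In the strain labelled as a deletion, 9 of the 11 stretch RNAs were lower than at 0 h in biological replicate 1 and 8 in biological replicate 2, and SPNCRNA.230 was higher in both. SPNCRNA.359 had 1.07, 1.61 and 0.994 CPM in replicate 1 and 1.24, 1.73 and 1.70 CPM in replicate 2, against 14.9, 17.7 and 16.7 CPM at 0 h (log2 change -3.76 ± 0.18, adjusted p = 2.7e-08, for replicate 1). SPNCRNA.360 was at 1 count in all in replicate 1, a summed level 290-fold lower than at 0 h (95% interval 51.7 to 11512). SPNCRNA.230 had 4.95, 5.03 and 5.78 CPM in replicate 1, above the 1.61, 1.31 and 1.76 CPM at 0 h (log2 change 1.73 ± 0.19, adjusted p = 3.0e-05). Those levels were in the range of its 72 h and 96 h libraries.

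The remaining RNAs, outside the stretches, showed the rise. At 48 h, 81 of 153 were higher than at 0 h and 4 lower, and with the values corrected for GC content 64 were higher and 8 lower (all rows 26.1% and 21.1%). The 4 were SPNCRNA.394, SPNCRNA.1506, SPNCRNA.427 and SPNCRNA.120, of which SPNCRNA.1506 was named after its values were seen. Among those averaging 5 CPM or more, the 4 largest rises were those of meu3, meu19, SPNCRNA.1122 and SPNCRNA.1255.

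RNA meu3 had 0.296, 0.478 and 0.706 CPM at 0 h, then 5.79, 12 and 8.94 CPM at 24 h and 30.5, 39.99 and 40.2 CPM at 48 h. The 72 h libraries held 15.2, 8.17 and 6.85 CPM, the 96 h libraries 7.27, 6.84 and 4.83 CPM, and those of 120 h 1.73, 1.5 and 1.89 CPM. Every later library was above all 0 h libraries, and those at 48 h were the highest. The log2 change was 6.24 ± 0.40 at 48 h (adjusted p = 1.6e-08) and 1.81 ± 0.47 at 120 h (adjusted p = 0.018). Its partial copy meu19 had 29.3, 27.1 and 27.7 CPM at 48 h, against 0.932, 1.35 and 1.36 CPM at 0 h (log2 change 4.52 ± 0.41, adjusted p = 5.4e-07). Since meu3 lies near the left end of chromosome III and meu19 near its right end, both are within 125 kb of an end, a distance at which RNAs on the other chromosomes were left out.

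The lncRNA sme2, which accumulates at its own locus with the meiotic regulator Mei2 and promotes pairing of homologous chromosomes, rose as well. It had 15.8, 21.5 and 19.1 CPM at 48 h, against 3.09, 5.81 and 4.29 CPM at 0 h (log2 change 2.09 ± 0.31, adjusted p = 7.4e-05). At 120 h it had 2.55, 3.17 and 2.17 CPM, overlapping with 0 h (log2 change -0.74 ± 0.34, adjusted p = 0.17). The rise was therefore not seen in the last samples.

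Levels of omt3 were the highest among the RNAs that rose. It had 271, 405 and 419 CPM at 48 h, against 38.4, 77.3 and 58.5 CPM at 0 h (log2 change 2.65 ± 0.36, adjusted p = 3.1e-05). At 120 h its libraries were spread between 58.9 and 163 CPM, overlapping with 0 h, at a log2 change of 1.09 ± 0.34 (adjusted p = 0.045). SPNCRNA.993, which lies 76 bases away on the same strand and is itself one of the 172, rose with it at 48 h by a log2 change of 2.10 (adjusted p = 2.2e-05).

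SPNCRNA.1122 had 5.31, 6.03 and 7.59 CPM at 48 h, against 0.466, 0.279 and 0.656 CPM at 0 h (log2 change 3.77 ± 0.35, adjusted p = 7.4e-07). At 120 h it had 0.728, 0.642 and 0.277 CPM and overlapped with 0 h. Its nearest row, SPCC794.06, 503 bases away on the same strand, had a log2 change of -0.16 at 48 h (adjusted p = 0.34). SPNCRNA.1255 had 8.94, 15.9 and 17.2 CPM at 48 h, against 2.12, 1.99 and 1.92 CPM at 0 h (log2 change 2.79 ± 0.38, adjusted p = 3.4e-05), and it remained above every 0 h library at 120 h with 4.69, 7.23 and 7.48 CPM. Its neighbour wtf20, 891 bases away and convergent, rose by a log2 change of 2.45 (adjusted p = 2.2e-08).

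**Figure D4:**
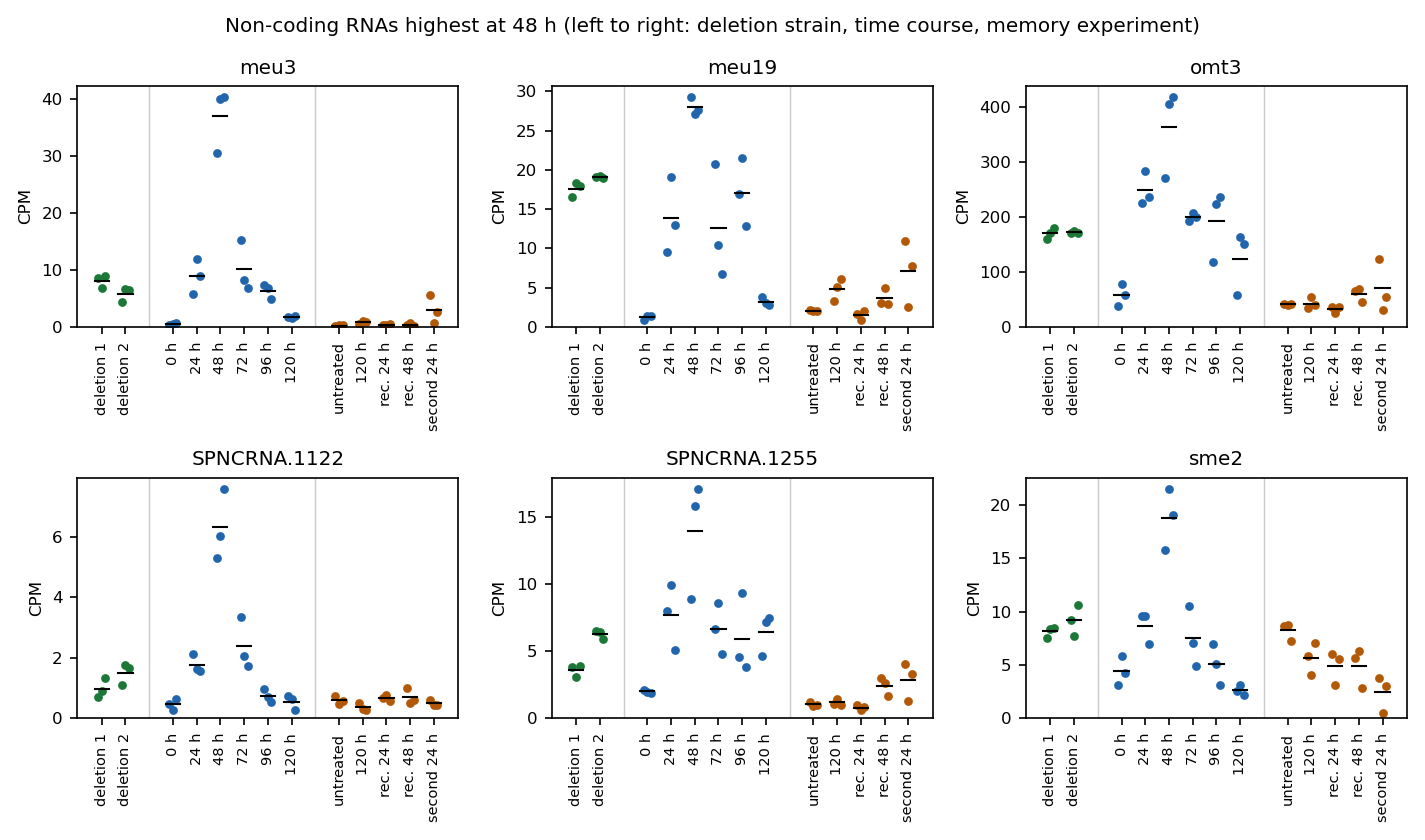
CPM of 6 RNAs in every library (points) with the group mean (line), with the deletion libraries at the left, then the time course, then memory libraries, each panel on its own linear axis from 0. In the time course all 6 had their highest mean at 48 h, and in the memory experiment none reached the level it had there.

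Some RNAs differed at 120 h, and not all of them had differed earlier. SPNCRNA.1190 had log2 changes of -0.62 at 24 h and 0.13 at 48 h (adjusted p = 0.22 and 0.80). SPNCRNA.472 had 8.65, 11.9 and 10.9 CPM at 120 h, against 4.53, 5.45 and 3.48 CPM at 0 h (log2 change 1.22 ± 0.23, adjusted p = 0.0019), and in the memory experiment 16.5, 13.5 and 19.4 CPM after 120 h, against 8.22, 7.90 and 6.83 CPM untreated (log2 change 1.10 ± 0.29, adjusted p = 0.037). In deletion replicate 1 it had 10.9, 11.7 and 9.33 CPM, a log2 change of 1.21 ± 0.17 against 0 h (adjusted p = 0.00023). No groups overlapped in these 3 comparisons, and the memory call was lost in 6 of the 15 fits that left out 1 library, with adjusted p up to 0.16. SPNCRNA.1243 had 14.9, 16.9 and 18.8 CPM at 120 h, against 9.27, 8.96 and 8.57 CPM at 0 h (log2 change 0.92 ± 0.13, adjusted p = 0.00014), while in the memory experiment its 120 h log2 change of 1.07 ± 0.40 did not pass the test (adjusted p = 0.18). SPNCRNA.1466 was higher after 120 h in the memory experiment, with 11.9, 15.4 and 12.8 CPM, against 9.29, 9.56 and 8.85 CPM untreated (log2 change 0.53 ± 0.15, adjusted p = 0.046), a call lost in 11 of the 15 fits that left out 1 library and with the replicate block (adjusted p = 0.081). In the time course SPNCRNA.471 (log2 change 0.81 ± 0.24, adjusted p = 0.032) was also higher at 120 h, and without 120 h replicate 1 its change was 0.49 (adjusted p = 0.16), its call being lost in 3 of 18 such fits and with the compared groups alone (adjusted p = 0.071). SPNCRNA.1190 was lower at -1.26 ± 0.40 (adjusted p = 0.050, under the threshold before rounding), a call lost in 12 of 18 such fits, with RLE scaling (adjusted p = 0.051) and with the compared groups alone (adjusted p = 0.052).

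SPNCRNA.427 was lower at 24 h and 120 h, with 5.12, 4.81 and 4.53 CPM at 24 h and 3.96, 5.31 and 4.2 CPM at 120 h, against 14.4, 13.1 and 13.3 CPM at 0 h (log2 changes -1.49 ± 0.18 and -1.60 ± 0.19, adjusted p = 2.6e-05 and 2.8e-05). At 48 h its log2 change was -1.19 (adjusted p = 9.6e-05). In the memory experiment SPNCRNA.427 was not called after 120 h, and the 120 h effects of the experiments differed by a log2 of 0.38 ± 0.49 (adjusted p = 0.89). Its neighbour 115 bases away on the same strand, the antisense row of SPBP8B7.18c, fell by a log2 change of -2.96 at 48 h (adjusted p = 1.0e-13). SPNCRNA.394 had 0.737, 0.748 and 0.682 CPM at 24 h, against 5.29, 4.94 and 4.54 CPM at 0 h (log2 change -2.76 ± 0.41, adjusted p = 0.00014). In the memory experiment it had 2.00, 0.917 and 0.834 CPM after 120 h, against 5.26, 6.14 and 6.27 CPM untreated (log2 change -2.23 ± 0.28, adjusted p = 0.00016), and 8.29, 9.35 and 7.12 CPM after 24 h of recovery, so that it moved as the stretch RNAs did although it lies outside them, on chromosome II from 2198477 to 2199461.

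The second depletion gave another picture for the RNAs outside the stretches. Over all 126 tested, 50 were called against untreated samples, 12 higher and 38 lower, against 44.7% of all rows, 22.7% and 22%. Correcting for GC content gave 56 called, 27 higher and 29 lower (all rows 16.0% and 24.2%), and moved the median log2 change of those outside the stretches to 0.14, against -0.43 without it. Without the 3 libraries of rho above 0.5, 30 were called, 10 higher and 20 lower, with a single library left in the second depletion and assumed to vary like the other groups. The direction outside the stretches thus depended on the handling of GC content, while the 10 stretch RNAs were lower in each second-depletion library than in the untreated ones.

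**Figure D5:**
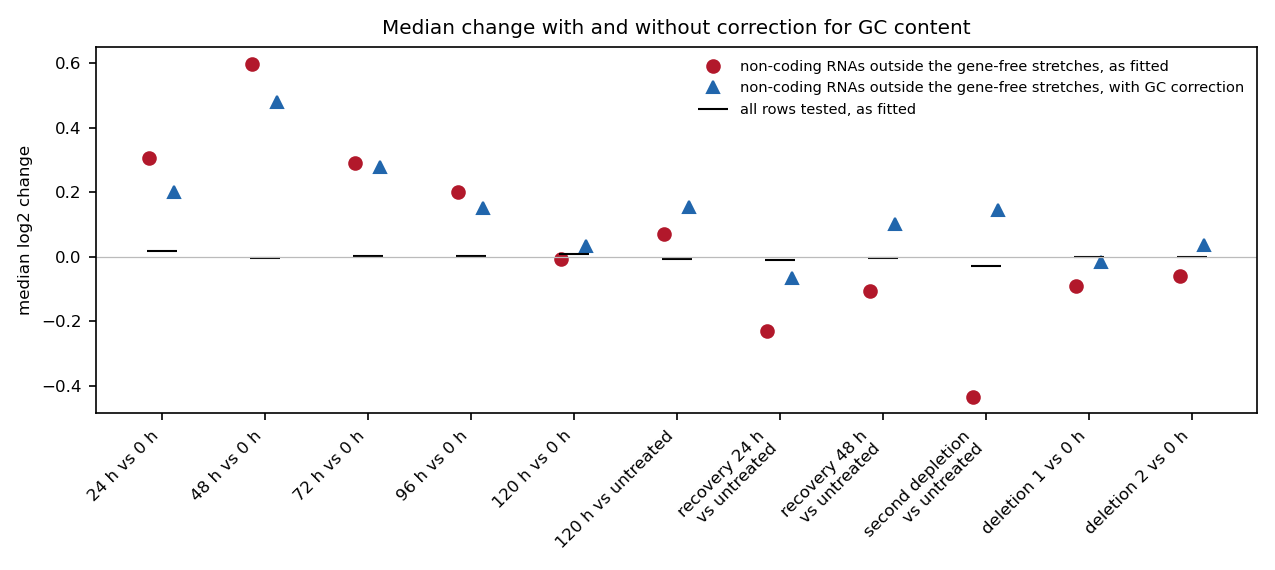
Median log2 change of the tested RNAs outside the gene-free stretches in 11 comparisons, as fitted (circles) and with a GC correction (triangles), beside the median of all tested rows (dashes). The 48 h median stayed above 0 under both (0.60 as fitted and 0.48 corrected), and that of the second depletion changed sign (-0.43 as fitted and 0.14 corrected).

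Among the named RNAs, meu3 had 5.65, 0.645 and 2.60 CPM after the second depletion, against 0.146, 0.238 and 0.259 CPM untreated (log2 change 3.81 ± 0.67, adjusted p = 0.0015), and meu19 had 11, 2.58 and 7.81 CPM, against 2.09, 2.05 and 1.97 CPM untreated (log2 change 1.83 ± 0.44, adjusted p = 0.0079). Both were highest in replicate 1, the library whose counts did not follow GC content (rho -0.00237). SPNCRNA.989 had 6.37, 7.31 and 8.14 CPM, against 3.8, 3.85 and 3.31 CPM untreated (log2 change 0.99 ± 0.23, adjusted p = 0.0060). SPNCRNA.844 had 22, 71.7 and 32.4 CPM, against 17.9, 17.9 and 18.6 CPM untreated (log2 change 1.20 ± 0.32, adjusted p = 0.012). That change was 0.59 without replicate 2 of the second depletion (adjusted p = 0.031) and 0.29 without the 3 libraries of rho above 0.5 (adjusted p = 0.17). SPNCRNA.322 had 7.30, 10 and 9.58 CPM, against 5.11, 3.95 and 5.38 CPM untreated (log2 change 0.89 ± 0.20, adjusted p = 0.0059), and 0.61 without those libraries (adjusted p = 0.079). For sme2 the second depletion gave 3.75, 0.538 and 2.99 CPM, against 8.66, 8.80 and 7.30 CPM untreated. Against untreated samples sme2 thus fell (log2 change -1.68 ± 0.46, adjusted p = 0.013) where the first 24 h had raised it. The test between the 2 depletions measured the second from the 24 h recovery samples instead. By that test the effects differed by a log2 of -1.88 ± 0.55 (adjusted p = 0.016). Without the 3 libraries that difference was -1.39 (adjusted p = 0.13).

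Set against its 24 h recovery samples, the second depletion changed 37 of 126 RNAs, 15 higher and 22 lower (all rows 27.8%, 16.3% and 11.5%). The difference from the first 24 h of depletion was called for 25 of 139, 8 higher and 17 lower (all rows 26.2%, 14.7% and 11.5%), and with GC correction for 24, 13 higher and 11 lower (all rows 10.4% and 13.4%). Without the 3 libraries it was called for 7, without replicate 1 of the second depletion for 45, without its replicate 2 for 15 and without recovery replicate 1 for 14. The contrast with the recovery samples called 23 without recovery replicate 1 or replicate 3. The share called among the RNAs was 29.4% in the first of these comparisons and 18% in the second, near and below that of all rows.

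In the strain labelled as a deletion of epe1, 50 of 153 RNAs differed from 0 h in biological replicate 1, 19 higher and 31 lower (all rows 32.8%, 17.2% and 15.6%), and 43 in replicate 2, 17 higher and 26 lower (all rows 31.3%, 16.5% and 14.8%). The shares called are close to the background. In replicate 1, 12.4% of the RNAs were higher and 20.3% lower, against 12.5% and 20% of 1272 SPNCRNA rows that overlap another row. Between the biological replicates none of 153 was called by edgeR (all rows 0.775%, 0.608% higher and 0.167% lower), with 13 at an unadjusted p under 0.05 and 3 called by DESeq2. RNA meu19 had 16.6, 18.3 and 18 CPM in replicate 1 and 19.1, 19.2 and 19.0 CPM in replicate 2, against 0.932, 1.35 and 1.36 CPM at 0 h (log2 change 3.83 ± 0.15 for replicate 1, adjusted p = 5.1e-09). RNA meu3 (log2 change 4.03 ± 0.27, adjusted p = 3.7e-07) and omt3 (1.53 ± 0.36, adjusted p = 0.011) were higher in replicate 1 as well. SPNCRNA.757 had 38, 48.3 and 53.0 CPM in replicate 1, against 96.4, 97.9 and 88.5 CPM at 0 h (log2 change -1.05 ± 0.13, adjusted p = 0.00011), whereas at 120 h of depletion it had 106, 81.6 and 80.8 CPM and overlapped with 0 h.

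The changes of the RNAs were set beside those of their nearest rows. Across 163 pairs the log2 changes of RNA and neighbour had a Pearson correlation of 0.79 at 24 h, and 0.57 at 48 h, with both values of a pair taken from the same libraries, and a Spearman correlation of 0.43 at both times. The same was not computed for other row pairs. RNAs that are each other's nearest row, such as SPNCRNA.359 and SPNCRNA.360, entered in both directions, so the 163 pairs are not all distinct. For RNAs whose neighbour lay at least 500 bases away, stretch RNAs included, r was 0.82 at 24 h and 0.65 at 48 h (n = 21). The Pearson value depended on the stretches, where the nearest rows are other RNAs of the same stretch or, for SPNCRNA.230 and SPNCRNA.234, the genes per1 and emc5. Without them r was 0.44 at 24 h and 0.43 at 48 h (n = 152), and 0.23 after the second depletion (n = 110), against 0.57 with them (n = 120). The Spearman correlation without them was 0.32 at 24 h, 0.31 at 48 h and 0.086 after the second depletion.

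Genes of RNA surveillance and of RNA interference were listed for comparison. Of 31 surveillance genes tested, 4 were higher and 11 lower at 24 h, where exosome subunits such as dis3 (log2 change -0.30 ± 0.08, adjusted p = 0.010) and rrp4 (-0.43 ± 0.11, adjusted p = 0.0068) fell and rrp40 rose (0.43 ± 0.10, adjusted p = 0.0036). At 48 h 3 were higher and 10 lower, among them red5, a partner of Mmi1-directed decay, at 0.51 ± 0.06 (adjusted p = 5.0e-06) and the helicase gene upf1 of nonsense-mediated decay at -0.40 ± 0.07 (adjusted p = 0.00030). The list medians were -0.13 at 24 h and -0.17 at 48 h, against 0.02 and 0.00 for all rows. Of 10 RNA interference genes, 2 rose at 24 h, and 4 fell in deletion replicate 1, namely arb1, chp1, cid12 and rdp1, with log2 changes between -0.33 and -0.16. At 120 h of the time course 3 surveillance genes were higher and 1 lower, and 1 RNA interference gene was lower. After the second depletion 7 surveillance genes were higher and 5 lower, and 3 RNA interference genes were higher and 3 lower. Of all rows, 20.5% were higher and 17.2% lower at 24 h, and 25.6% and 22.4% at 48 h. At 120 h of the time course these shares were 6.38% and 7.76%, and after the second depletion 22.7% and 22%. In deletion replicate 1 they were 17.2% and 15.6%. Whether the share called in either list differed from that of all rows was not tested. The surveillance genes named here were not chosen by a set rule. Of the named genes of both lists, dis3, rrp40, arb1 and rdp1 each overlap 1 other row and cid12 overlaps 2, where reads can be counted for more than 1 row.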

How the data were processed

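The authors deposited raw counts per annotated row in 3 tables, for the time course, the memory experiment and the deletion strain. Per the submitters' processing notes, reads were handled with Trimmomatic and STAR on ASM294v2. The counting tool and its use of strand are not given in the sources used here, and a read over an overlap can be counted for more than 1 row. The column index was read as the replicate number, and 6 sample columns matching no labelled library were not used. Titles rather than the treatment field gave the second-depletion group. Nothing says that the 3 libraries of a group came from separate cultures, so p-values measure the spread between these libraries, which may be technical.

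Differences were tested with edgeR 4.0.16 (R 4.3.3; TMM scaling, filterByExpr, quasi-likelihood fit, Benjamini-Hochberg adjustment over all rows of each of 16 contrasts), SE being the log2 change over the root of F. Tested were 164, 126 and 153 RNAs in the time-course, memory and deletion fits, of 172, 140 and 163 in those tables, and 139 across the first pair. Differences between effects used 1 fit of both tables. On simulated counts for 48 h against 0 h, 99 of 100 rows changed 4-fold and 91 of 100 changed 2-fold were recovered, with 100 and 88 for 120 h against untreated, 97 and 99 for deletion replicate 1 and 99 and 73 for the difference between 120 h effects. Unchanged rows called were 11, 7, 7 and 13 in that order. The changed rows were drawn from all tested rows. At 0 h the median was 74.2 CPM over all rows and 1.99 CPM for these RNAs, so the recovery does not carry over to them. Alternatives were RLE scaling, no filter, DESeq2 1.42.0, the compared groups alone, a replicate block, a GC correction (lowess span 0.3), both together, each library left out, plain library totals, and, added after seeing the data, leaving out the 3 libraries with a GC trend above 0.5.

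The members and gene lists were chosen with earlier results of these data known. Named RNAs are, per main comparison, the 4 largest rises and 4 largest falls at an adjusted p under 0.05 whose groups did not overlap and which averaged 5 CPM or more in either of them, plus characterised RNAs and the 3 highest in RPKM at 0 h. Sequences came from RefSeq records (ASM294v3) of 165 RNAs, and copies from blastn 2.17.0. Same-numbered libraries deviated together, with every correlation over 0.1, in the 72 h comparison (0.164, 0.166 and 0.164) and the 48 h recovery comparison (0.166, 0.103 and 0.198), and in no other within a table. The second depletion against its 24 h recovery samples had correlations of 0.44, 0.46 and 0.088. Only the last of these was under that limit, so a pairing there is not excluded.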

Additional observations from a re-analysis of the deposited data

Results flagged for a closer look

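These results are listed because the effect of depletion differed between experiments by the test of the difference itself, with edgeR. At 120 h, the effect in the memory experiment minus that in the time course was a log2 of -2.16 for SPNCRNA.373 (adjusted p = 0.0011), -2.16 for SPNCRNA.231 (adjusted p = 0.0093) and 1.34 for SPNCRNA.322 (adjusted p = 0.0035).

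After 24 h, the effect of the second depletion, measured from its 24 h recovery samples, minus that of the first was a log2 of 6.75 for SPNCRNA.230 (adjusted p = 2.3e-05), 5.62 for SPNCRNA.359 (adjusted p = 0.0014), 4.58 for SPNCRNA.231 (adjusted p = 0.0015), 2.82 for SPNCRNA.234 (adjusted p = 0.0019) and 2.09 for SPNCRNA.373 (adjusted p = 0.012). These 5 lie in the gene-free stretches, and each had 8 counts or fewer summed over the 24 h libraries of the first depletion, so the size of the difference depends on the prior count. It was negative for SPNCRNA.1122 (-2.32, adjusted p = 0.0048), sme2 (-1.88, adjusted p = 0.016) and SPNCRNA.99 (-3.48, adjusted p = 0.021). SPNCRNA.99 had 0.411, 0.108 and 0.277 CPM after the second depletion, against 9.68, 5.95 and 4.97 CPM untreated, and a RefSeq protein-coding gene overlaps it. Without the 3 libraries whose rank correlation with GC content was above 0.5, its difference was -3.04 (adjusted p = 0.21), and SPNCRNA.1122 (-2.07, adjusted p = 0.064), SPNCRNA.373 (2.06, adjusted p = 0.067) and sme2 (-1.39, adjusted p = 0.13) were also no longer called, with a single second-depletion library left. Leaving out 1 library also ended the call of SPNCRNA.373 (1.72, adjusted p = 0.056, without 24 h replicate 1) and that of SPNCRNA.99 (-2.52, adjusted p = 0.11, without recovery replicate 3, and -3.28, adjusted p = 0.059, without second-depletion replicate 2). Without second-depletion replicate 1 the difference of SPNCRNA.359 was 3.12 (adjusted p = 0.0093).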

How the results depend on the processing

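No called direction reversed among the named RNAs under the alternatives run: of 1525 recomputed values, 1477 kept their side of the threshold and 48 lost it, 35 of these on leaving out 1 library. The changes followed were picked as called in these same data, so these counts are no independent check. Of the recomputed values, 1101 left out 1 library, in many fits a library of neither compared group. Counts of called RNAs moved by over 1.5 times as follows, and the cause was not tested. For 120 h against untreated, 23 were called with the replicate block and GC correction, 25 with the compared groups alone and 26 without the 3 libraries of GC trend above 0.5. For 24 h of recovery these were 2, 5 and 4, with 3 under GC correction and 2 by DESeq2. For 48 h of recovery, 2 were called with the block, 9 with GC correction, 7 with both, 1 with the compared groups alone and 7 by DESeq2. For the second depletion, the compared groups alone and leaving out those libraries each gave 30, and against the recovery samples 12 and 24. Recovery against 120 h gave 26 without those libraries. The difference between the 24 h effects gave 16 and 7, and the deletion replicates gave 3 with the compared groups alone and 3 by DESeq2.

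Leaving out 1 library gave 46 to 62 called at 24 h, 79 to 94 at 48 h, 23 to 41 at 72 h, 17 to 30 at 96 h and 20 to 39 at 120 h. In the memory experiment it gave 10 to 21 at 120 h, 0 to 2 and 0 to 6 after recovery, 39 to 66 after the second depletion, 10 to 16 for recovery against 120 h and 23 to 50 for the second depletion against recovery. It gave 36 to 60 and 34 to 57 in deletion replicates 1 and 2, 0 to 3 between them, and 4 to 12 and 14 to 45 for the differences at 120 h and 24 h.

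Correlations with the nearest row were 0.44, 0.43, 0.43, 0.24, 0.23 and 0.23 without the stretches at 24, 48 and 120 h, 120 h of the memory experiment, the second depletion and deletion replicate 1, and 0.82, 0.65, 0.62, 0.63, 0.69 and 0.61 with rows at least 500 bases away. With plain library totals the median level was 1.93 CPM at 120 h and 1.89 CPM untreated. Depth limits the RNAs under 1 CPM, 53 of the 172 at 0 h.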
